A study of Sorghum bicolor with 12 samples.

Results

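A set of 164 transcripts, from 163 loci, was detected in leaves of the sorghum genotype IS22330 and had no read in any library of the genotype IS20351. They were chosen by their measured values. A transcript was kept when its mean RPKM (reads per kilobase of transcript, scaled to the size of the library) was at least 1 in both groups of IS22330 plants and was at the value entered for no reads, 0.0011 or less, in both groups of IS20351 plants. They made up 0.586% of the 27989 transcripts in the tables, and 0.979% of the 16759 transcripts with a mean RPKM of at least 1 in both IS22330 groups. Those 16759 are called expressed transcripts here. Because the choice rested on the level in each genotype, the difference between the genotypes is given as a description, and the calls of a test of it, given once, support nothing.

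The study set the drought-tolerant genotype IS22330 against the drought-sensitive genotype IS20351, in drought-stressed (DS) and well-watered (WW) plants. Pots of DS plants were dried until the fraction of transpirable soil water (FTSW, the share of the water a plant can draw from the soil) was 0.2, and were held there for 9 days, while WW plants were kept near an FTSW of 0.7. Plants of every group were harvested 42 days after emergence. RNA from 3 biological replicates of each of the 4 groups was sequenced, so each genotype had 6 libraries. The groups were IS22330 DS, IS22330 WW, IS20351 DS and IS20351 WW. The labels call the tissue leaf and the extraction text calls it leaf meristem. Transcripts of the RuBisCO small chain and of a light-harvesting protein of photosystem II (Sb05g003480.1 and Sb06g032690.1), both markers of green leaf, had mean RPKM of 604 and 946 in IS22330 DS, 984 and 1988 in IS22330 WW, 361 and 269 in IS20351 DS and 1683 and 1976 in IS20351 WW. The mean was lower in DS than in WW plants for 4 of 6 such leaf markers in IS22330 and for 6 of 6 in IS20351. Of the 6, only Sb05g003480.1 was on the list of marker IDs planned beforehand. How the others were picked can shape these counts, so nothing is read from them. The part of these markers in the values below was not tested. No marker of dividing meristem cells could be matched to the IDs.

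Sorghum accessions, like those of maize and other cereals, are known to differ in gene content as well as in sequence. Genes found in some accessions and missing or strongly diverged in others often lie in clusters, and families such as disease resistance genes are well-known examples in plants. Water deficit for its part changes the level of many leaf genes, among them those of photosynthesis, osmotic adjustment and water transport. In a table of reads aligned to 1 reference genome, a gene that is absent, a gene too diverged for its reads to align, reads that no longer match 1 place only, and a gene that is not transcribed all appear as a transcript without reads, and these cannot be told apart here. The IDs of the 164 transcripts carry no gene name or function in the sources used, and they are given by ID and position in the locus order.

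The IS22330 libraries held 27352783 to 28294742 reads on transcripts and the IS20351 libraries 26398759 to 28680141. The 164 transcripts took 306299 reads out of 166283527 in the 6 IS22330 libraries, against 0 reads out of 165797043 in the 6 IS20351 libraries. Their share of a library lay between 0.162 and 0.234% of the reads in IS22330. The total depth of the genotypes was thus nearly the same, and each of the 6 IS20351 libraries lacked every one of the transcripts. In the IS22330 libraries 161, 163 and 161 of them had reads in DS plants and 164, 162 and 163 in WW plants, so 158 had reads in all 6 libraries. A single transcript was covered by 42 (Sb04g009765.1) to 25338 reads (Sb03g028600.1) over the 6 libraries, with a median of 717.

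With no read in IS20351, the ratio between the genotypes has only a lower bound. It was taken against 3 reads over the 3 libraries of the matching IS20351 group, which covers counting error only. On this bound the transcripts were at least 7.23- to 4716-fold higher in DS plants of IS22330 than of IS20351 (median 114) and at least 5.02- to 3700-fold higher in WW plants (median 118). The bound passed 10-fold for 161 of 164 transcripts in each water treatment, and 100-fold for 86 in DS plants and 88 in WW plants. It was lowest for short transcripts of few reads, Sb07g005753.1 (156 bases, 43 reads) in DS plants and Sb04g009765.1 (162 bases, 42 reads) in WW plants. It was highest in both treatments for Sb03g028600.1. In the edgeR test 72 of the 163 tested transcripts were called higher in DS plants of IS22330, and 65 in WW plants, with an adjusted p no higher than 0.001 and a ratio of 4-fold or more. Of all 19021 transcripts tested, 0.673% were called higher in DS plants and 0.552% in WW plants of IS22330, and since the choice of transcripts used these same contrasts, nothing is read from the counts. DESeq2 called 148 in each treatment, where 2.54% of all tested transcripts were called higher in IS22330 under DS and 2.14% under WW. Leaving out any 1 of the 3 IS20351 libraries of the treatment, or any 1 IS22330 library other than DS library c, gave 34 to 47 in DS plants and 25 to 39 in WW plants. In these fits 53 to 78 of all tested transcripts were called higher in DS plants of IS22330 and 39 to 66 in WW plants. Each of the fits tested 18835 to 18885 transcripts.

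The level of the set was low beside that of other expressed transcripts. The level of a transcript, the average of its DS and WW mean RPKM in IS22330, had a median of 4.46 over the 164 (quartiles 2.10 and 10.5), against 11.9 over all expressed transcripts. It was under 5 for 89 of them (54.3%, against 27.7% of expressed transcripts), from 5 to 20 for 55, and 20 or more for 20 (12.2%, against 36.3%). None of the 1459 expressed transcripts with a level of 100 or more lacked reads in IS20351. Put the other way, transcripts without reads in IS20351 made up 1.92% of the expressed transcripts at a level of 1 to 5, 0.911% at 5 to 20 and 0.432% at 20 to 100. The choice asked for no reads in IS20351, which a transcript that gives few reads meets more readily. The choice itself can therefore favour a low level, and how far it did was not tested. The medians in DS and WW plants lay close together, with 4.24 (1.04 to 133) in DS plants and 4.39 (1.01 to 70.1) in WW plants.

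**Figure D1:**
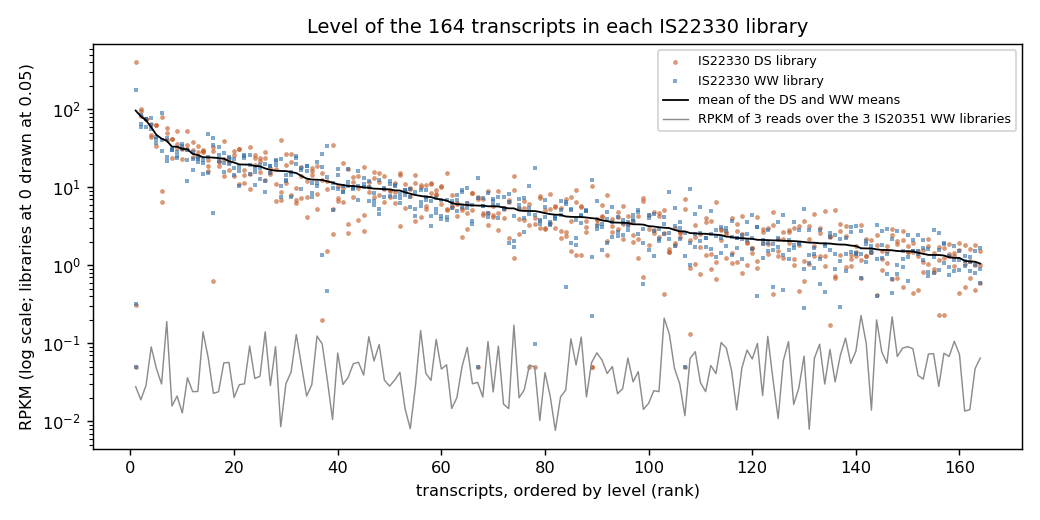
RPKM of each of the 164 transcripts in the 3 DS and 3 WW libraries of IS22330 (log axis), with the transcripts ordered by level along the horizontal axis. The black line is the mean of the DS and WW means, from 96.5 down to 1.05, and the grey line marks the RPKM that 3 reads over the 3 IS20351 WW libraries would have given; in those libraries every transcript had 0 reads.

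The highest level belonged to Sb09g025520.1, and it came from 2 libraries. Its RPKM was 0, 0.315 and 400.2 in the DS libraries a, b and c of IS22330, and 0.316, 178 and 0 in the WW libraries a, b and c. Libraries of a group are lettered by increasing total and equal letters do not pair a DS with a WW library. The transcript was thus near or at 0 in 4 libraries and among the most abundant of the set in 1 library of each treatment, and it did not reach the minimum for the drought test.

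The next transcripts were steady. Sb03g028600.1 had 94.6, 101 and 83.3 RPKM in DS and 84.1, 65.7 and 60.3 RPKM in WW libraries of IS22330. Sb09g001200.1 had 75.5, 75.8 and 75.4 RPKM in DS and 74.3, 74.3 and 58.8 RPKM in WW libraries, the smallest spread of the 164 (coefficient of variation 9.22% over 6 libraries). Both transcripts were high in every IS22330 library and had no read in IS20351, where 3 reads over the DS libraries would have given an RPKM of 0.237 for even the shortest of the 164. Sb05g004922.1, of only 393 bases, averaged 52.3 ± 10.9 RPKM in DS plants and 65.8 ± 10.9 RPKM in WW plants of IS22330 (SD, n = 3 each). Sb04g019795.1 averaged 53.2 ± 16.4 in DS plants and 41.1 ± 3.19 in WW plants, and the DS and WW libraries overlapped for both transcripts.

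Sb07g004710.1 reached 6.44, 9.07 and 78.8 RPKM in DS and 88.5, 29.6 and 40.6 RPKM in WW libraries, so that 2 DS libraries were low and the third lay with the WW libraries. Sb09g013990.1, a transcript of 186 bases, averaged 49.5 ± 9.07 RPKM in DS plants and 29.9 ± 11.8 RPKM in WW plants (SD, n = 3 each). Sb04g005240.1 averaged 36.0 ± 10.3 in DS plants and 30.5 ± 0.50 in WW plants, Sb01g026600.1 40.6 ± 11.2 in DS plants and 25.9 ± 2.64 in WW plants, and Sb07g023750.1 28.8 ± 4.76 in DS plants and 33.6 ± 2.42 in WW plants. Of these 4 transcripts the DS and WW libraries overlapped for Sb09g013990.1, Sb04g005240.1 and Sb07g023750.1, whereas the DS libraries of Sb01g026600.1 (36.0, 32.4 and 53.3) all lay above its WW libraries (25.5, 28.7 and 23.5).

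At the lower end, the choice of an RPKM of 1 divided transcripts of nearly equal level. Just inside it were Sb06g017900.1, with a mean RPKM of 1.53 in DS plants and 1.01 in WW plants of IS22330, Sb06g031440.1 with 1.04 in DS plants and 1.68 in WW plants, and Sb01g050343.1 with 1.05 in DS plants and 1.06 in WW plants. Just outside were Sb03g011830.1 with 1.79 in DS plants and 0.990 in WW plants, Sb10g005830.1 with 2.91 in DS plants and 0.989 in WW plants, and Sb07g003520.1 with 0.989 in DS plants and 0.997 in WW plants. In all, 1500 transcripts had no read in IS20351, and the other 1336 of these were under an RPKM of 1 in DS plants, WW plants or both groups of IS22330. The requirement of no reads also divided transcripts with nearly equal reads in IS20351. A further 10 expressed transcripts had 1 read and 13 had 2 reads over the 6 IS20351 libraries. At 4 to 10 reads there were 3 to 8 such transcripts for each number of reads. A limit of 0.5 gave 220 transcripts and a limit of 2 gave 114, and 112 of the 164 had an RPKM of at least 1 in each of the 6 IS22330 libraries.

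The transcripts were short. Their median length was 820 bases (156 for Sb07g005753.1 to 4620 for Sb10g008210.1), against 1443 bases over expressed transcripts and 1371 over all transcripts. Under 500 bases were 47 of the 164 (28.7%), against 7.53% of expressed and 10.2% of all transcripts. A short transcript gives fewer reads at an equal RPKM, so the demand for no reads can itself favour short transcripts, and how far it did was not tested. The locus numbers differed too. Along each chromosome most locus numbers are multiples of 10, and only 11.4% of all transcripts and 7.27% of expressed transcripts have another number, against 66 of the 163 transcripts with a chromosome number in the set (40.5%). Transcripts without reads in IS20351 were 5.46% of the 1208 expressed transcripts with such another number and 0.629% of the 15412 with a multiple of 10.

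Length and number went together, since transcripts whose number was not a multiple of 10 had a median of 648 bases when expressed. Within each class of length, however, the share was higher for numbers that were not multiples of 10. It was 6.47% against 2.06% under 500 bases, 6.48% against 0.881% from 500 to under 1000 bases, 4.49% against 0.484% from 1000 to under 2000 bases, and 1.96% against 0.445% from 2000 bases on. The last of these shares rested on 3 of 153 transcripts. The opposite set, of 76 transcripts detected in IS20351 and without reads in IS22330, had a similar make-up, with a median of 768 bases, 28.9% under 500 bases and 44.6% with a number that was not a multiple of 10. Its median level in IS20351 was 4.99, and it made up 0.468% of the 16232 transcripts with a mean RPKM of at least 1 in both IS20351 groups.

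**Figure D2:**
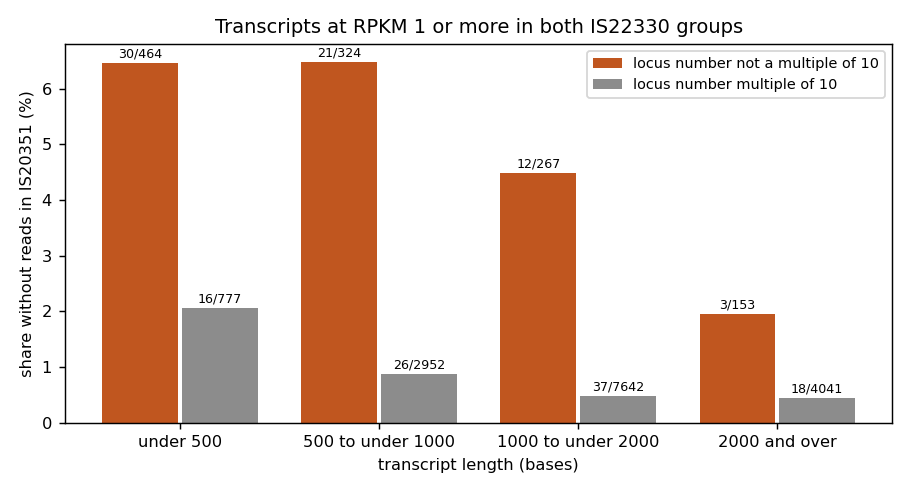
Share of the expressed transcripts of IS22330 that had no reads in IS20351 (percent, vertical axis) by transcript length in bases, for locus numbers that are not multiples of 10 (left bars) and multiples of 10 (right bars). The fractions above the bars give the transcripts without reads over all expressed transcripts of the class, 30 of 464 and 16 of 777 in the shortest class.

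Of the 163 loci, 162 were placed on the 10 chromosomes and 1 lay on an unplaced sequence (Sb0010s020250.1, 5.53 ± 3.15 RPKM in DS plants and 5.85 ± 1.74 RPKM in WW plants of IS22330). The placed loci numbered from 6 on chromosome 10 to 20 on chromosome 1. As a share of the expressed loci of a chromosome they were most frequent on chromosomes 8 (19 loci, 2.31%) and 5 (16 loci, 2.19%), and least on chromosomes 10 (0.459%), 3 (0.632%) and 1 (0.662%).

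Many lay side by side. Loci of each chromosome were put in the order of their IDs, and a run was 2 or more of the 162 placed loci of the set with no other locus of the tables between them. No locus of the tables lacked reads in both genotypes, so unread loci are left out of this order. Neighbours in it need not adjoin on the chromosome. There were 20 runs with 46 loci (28.4% of the 162), where the set made up 0.622% of the 26026 placed loci. These shares are unlike measures, since a locus has a neighbour on each side. Of the runs 15 held 2 loci, 4 held 3 and 1 held 4. Allowing 1 other locus between them gave 22 runs with 53 loci, and allowing 3 gave 25 runs with 61 loci. The opposite set had 10 runs with 21 of its 73 placed loci (28.8%). The level was not the same along a run. It differed by under 2-fold between the highest and lowest locus in 10 of the 20 runs and by over 5-fold in 3.

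The run of 4 loci lay on chromosome 2, from Sb02g021535 to Sb02g021570. Sb02g021535.1 had 6.61, 7.26 and 0.702 RPKM in DS and 2.92, 0.569 and 1.92 RPKM in WW libraries of IS22330. Sb02g021550.1 averaged 4.00 ± 0.988 RPKM in DS plants and 3.07 ± 0.979 in WW plants, Sb02g021560.1 7.41 ± 1.91 in DS plants and 4.38 ± 1.41 in WW plants, and Sb02g021570.1 8.93 ± 2.49 in DS plants and 5.03 ± 1.61 in WW plants (SD, n = 3 each). All 4 loci had a higher mean in DS than in WW plants and none passed the drought test. The 4 loci held 4307 reads in IS22330 and 0 in IS20351. On their left Sb02g021530 had 142 reads in IS22330 and 121 in IS20351. On their right Sb02g021770 had 1426 reads in IS22330 and 187 in IS20351.

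A longer block on chromosome 6 ran from Sb06g011767 to Sb06g011780 and held 6 loci without a read in IS20351, 4 of them in the set. Sb06g011767.1 averaged 12.2 ± 4.25 RPKM in DS plants and 7.05 ± 1.32 RPKM in WW plants of IS22330, Sb06g011770.1 8.56 ± 0.934 in DS plants and 10.3 ± 2.16 in WW plants, and Sb06g011772.1 3.68 ± 0.290 in DS plants and 4.27 ± 2.06 in WW plants (SD, n = 3 each). Sb06g011780.1, after 2 loci with 4 and 3 reads in IS22330, averaged 5.32 ± 1.49 RPKM in DS plants and 4.66 ± 2.36 RPKM in WW plants. The 6 loci together had 4384 reads in IS22330, and the locus before them, Sb06g011760, had 683 reads in IS22330 and 443 in IS20351. The change from a locus read in both genotypes to loci read in IS22330 alone was thus abrupt at this end of the block.

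The 3 other runs of 3 loci had different patterns of level. On chromosome 5, Sb05g024180.1 averaged 2.15 ± 1.10 RPKM in DS plants and 1.77 ± 0.959 in WW plants, Sb05g024200.1 3.47 ± 1.68 in DS plants and 5.43 ± 1.2 in WW plants, and Sb05g024210.1 4.00 ± 1.46 in DS plants and 6.10 ± 0.983 in WW plants (SD, n = 3 each). On chromosome 6, the 3 short transcripts Sb06g017393.1, Sb06g017396.1 and Sb06g017400.1 (354, 453 and 354 bases) averaged 2.06 ± 1.79, 2.23 ± 1.13 and 1.61 ± 0.475 RPKM in DS plants, against 2.20 ± 1.56, 2.91 ± 1.45 and 1.69 ± 0.517 RPKM in WW plants. The highest and lowest levels were 2.58-fold apart in the first of these runs and 1.56-fold in the second. On chromosome 9 the levels were 21.4-fold apart. Sb09g016180.1 had 32.7, 28.9 and 0.634 RPKM in DS and 34.6, 4.66 and 42.8 RPKM in WW libraries, its neighbour Sb09g016190.1 had 12.6, 15.5 and 0.202 RPKM in DS and 26.7, 1.38 and 18.3 RPKM in WW libraries, and Sb09g016200.1 stayed at 1.16 ± 0.473 RPKM in DS plants and 1.08 ± 0.221 in WW plants. The first 2 were low in the same 2 libraries, DS library c and WW library b, and the third was not.

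Stretches were also counted from the side of IS20351, as loci consecutive in this order without a read in its 6 libraries. Of these, 132 stretches held at least 1 locus of the set, and 74 of them were a single locus. A length of 3 or more loci was found in 18 stretches and of 4 or more in 6. The longest, beside that on chromosome 6, was on chromosome 7 from Sb07g004840 to Sb07g004880, with 6 loci and 1252 reads in IS22330. Most of these reads came from Sb07g004880.1 and Sb07g004860.1, with 730 and 456. Sb07g023750.1, the tenth highest of the set, stood in a stretch of 4 loci with 16570 reads in IS22330, next to Sb07g023770.1 at 18.8 ± 9.83 RPKM in DS plants and 12.6 ± 4.39 RPKM in WW plants (SD, n = 3 each).

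If up to 10 reads over the 6 IS20351 libraries were allowed at each locus, a limit added after the values were seen, the stretches of 4 or more loci numbered 17. The longest then covered 8 loci of chromosome 8, from Sb08g002340 to Sb08g002400. It held 23195 reads in IS22330 and 14 in IS20351. Within it were 5 transcripts of the set, from Sb08g002340.1 at 39.9 ± 11.9 RPKM in DS plants and 21.5 ± 9.0 in WW plants of IS22330 to Sb08g002370.1 at 2.56 ± 1.75 in DS plants and 1.34 ± 0.377 in WW plants (SD, n = 3 each). The long transcript Sb08g002390.1 (4387 bases) averaged 9.03 ± 1.09 RPKM in DS plants and 7.58 ± 2.01 in WW plants. Sb08g002350 and Sb08g002380, which parted the runs here, were not in the set because they had 6 and 8 reads in IS20351, against 6786 and 4298 in IS22330. Just before the stretch, Sb08g002330 had 13093 reads in IS22330 and 18502 in IS20351.

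**Figure D3:**
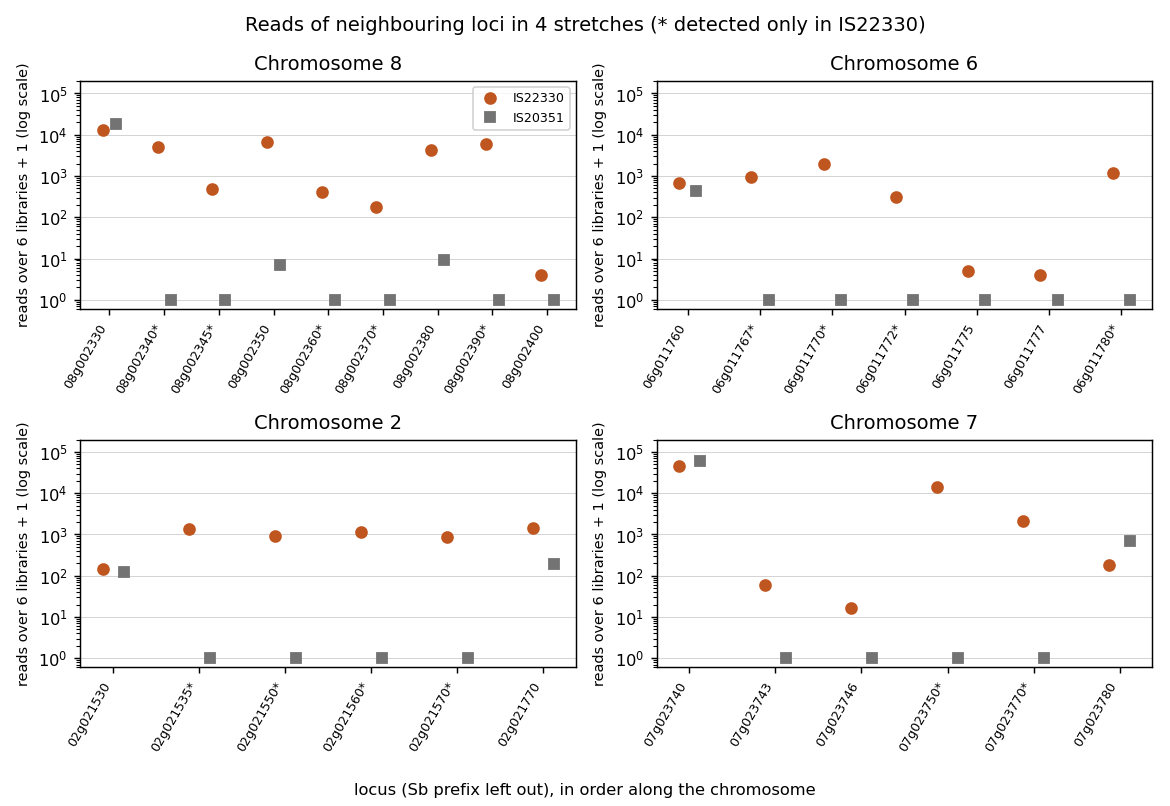
Reads over the 6 libraries of each genotype, plus 1, on a log axis for neighbouring loci in ID order in 4 stretches of chromosomes 8, 6, 2 and 7 (circles IS22330, squares IS20351, a star after loci of the set). Squares lie at 1, which is no read, or at most at 9 within the stretches, whereas the loci drawn before them have reads in both genotypes.

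The neighbours that were not in the set were examined for the same pattern. Of the 267 other loci directly next to a locus of the set, 49 (18.4%) had reads in IS22330 alone, against 4.90% of all 25864 loci outside the set. The share was 10.2% at a distance of 2 loci and 5.56% at 3 loci. Reads in IS20351 alone were found in 7.12% of the direct neighbours and in 5.49% of all loci outside the set. At a distance of 2 loci their share was 10.2% as well, and at 3 loci it was 5.95%. The share with reads in IS22330 alone was the higher of the 2 in direct neighbours, but not at 2 or 3 loci. These 2 shares are not built alike. Loci read in IS22330 alone with a mean RPKM of at least 1 in both its groups are in the set and so left out. The opposite set stays in the share with reads in IS20351 alone. The 2 shares are therefore not read against each other. The 49 neighbours had few reads, with a median of 6 and at most 124 over the 6 IS22330 libraries. The choice itself fixes much of this. A neighbour without reads in IS20351 that reached a mean RPKM of 1 in both IS22330 groups would be in the set.

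The level of the neighbours that could be tested was compared as well. In the edgeR test of WW and DS plants, 5 of 165 tested neighbours were called higher in IS22330 than in IS20351 with an adjusted p no higher than 0.001 and a ratio of 4-fold or more in at least 1 of the treatments (3.03%), against 67 of 17972 tested loci outside the set (0.373%). They were Sb08g002350 and Sb08g002380 of the stretch on chromosome 8, and Sb05g009140, Sb06g017700 and Sb04g019783. Sb05g009140 had 2541 reads in IS22330 and 2 in IS20351, Sb06g017700 had 1792 in IS22330 and 1 in IS20351, and Sb04g019783 had 1148 in IS22330 and 46 in IS20351, so that 4 of the 5 differed from the set by at most 8 reads in IS20351. DESeq2, an alternative added later, called 18 of 165 (10.9%, against 2.30% of loci outside the set). Without any 1 of the 12 libraries 3 to 6 were called, with 3 when IS20351 DS library c, IS20351 WW library a, or any IS22330 library other than DS library c was left out. In these fits 0.152 to 0.380% of the tested loci outside the set were called.

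**Figure D4:**
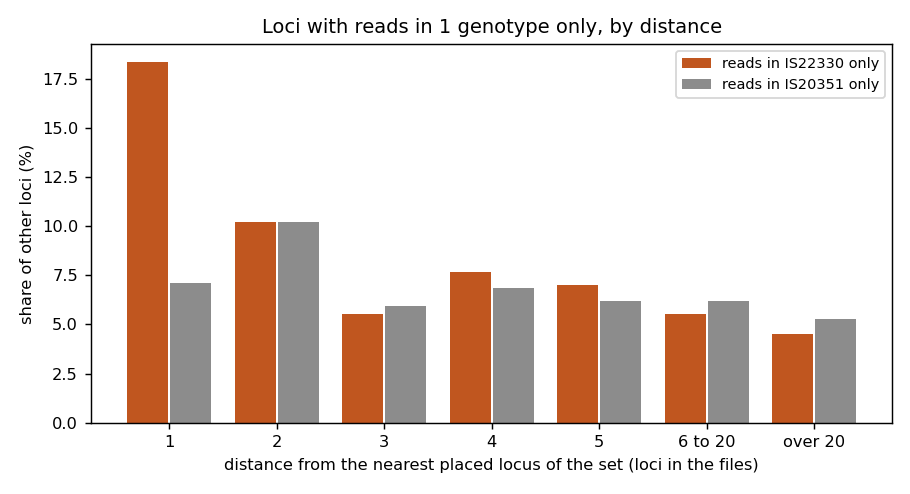
Share of loci outside the set (percent) that had reads in IS22330 only (left bars) or in IS20351 only (right bars), by distance in loci from the nearest of the 162 placed loci of the set. At a distance of 1 the shares were 18.4% and 7.12%, and beyond 20 loci 4.51% and 5.27%.

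Of the 163 loci, 5 had more than 1 transcript in the tables, as did 5.34% of all loci. Among the 5 were Sb09g016200, Sb08g016170, Sb03g004390 and Sb10g002600, where another transcript of the locus was not in the set. Sb09g016200.2 and Sb08g016170.1 also had no reads in IS20351, with 44 and 142 reads in IS22330. In the other 2 loci the genotypes differed by transcript. Sb03g004390.2 had mean RPKM of 9.87 in DS plants and 7.11 in WW plants of IS22330, and of 4.60 in DS plants and 2.39 in WW plants of IS20351. Sb10g002600.1 had 4.83 in DS plants and 2.63 in WW plants of IS22330, and 11.0 in DS plants and 9.24 in WW plants of IS20351. Sb03g004390.1 and Sb10g002600.2, the transcripts of the set, share bases with these and were counted by unique matches, so the division of reads between transcripts of 1 locus is uncertain.

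Within IS22330, the level of the set did not pass the test for a drought response. The limits of the choice restrict the change that could be seen, since a transcript had to reach an RPKM of 1 in both DS and WW plants. In edgeR, 0 of 163 tested transcripts were called with an adjusted p no higher than 0.001 and 4-fold, or at an adjusted p under 0.05, as were 0 (0%) of all 19021 transcripts tested. The lowest adjusted p of the set was 0.399. At an unadjusted p under 0.05 there were 6 transcripts (3.68%), against 11.0% of all tested transcripts, 3 of them higher and 3 lower in DS plants, where 5.44% and 5.57% of all were. The IS20351 libraries, at 0 reads for the whole set, gave no measure of its spread, so these shares do not rest on equal precision. With the IS22330 libraries alone, edgeR gave 6 of the set and 1611 of all 19021 at an unadjusted p under 0.05. The median absolute log2 ratio in the main fit was 0.471 in the set and 0.383 over all tested transcripts. DESeq2 gave 0 of the set at an adjusted p under 0.05, where 197 of all tested transcripts (1.04%) passed, and 7 at an unadjusted p under 0.05, against 14.0% of all. With limma 0 of the set and 0 of all passed at an adjusted p under 0.05, and 9 of the set had an unadjusted p under 0.05, against 10.3% of all. The median log2 ratio of DS to WW was 0.02 over the set and 0.01 over all tested transcripts. The ratio of the mean RPKM lay within 2-fold for 147 of the 164 (89.6%, against 89.7% of the other expressed transcripts), was over 2-fold higher in DS plants for 8 and over 2-fold lower for 9, and exceeded 4-fold for none.

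**Figure D5:**
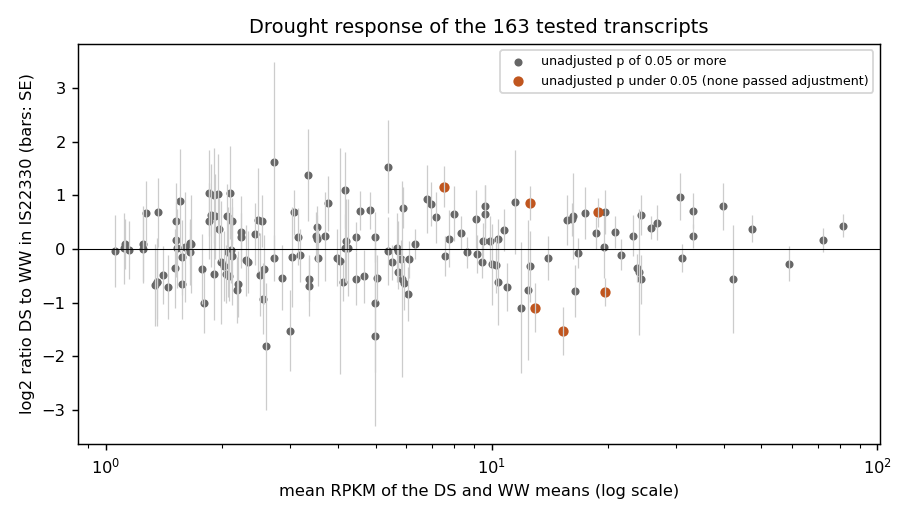
Log2 ratio of DS to WW in IS22330 with its SE (edgeR, vertical axis) against the level in RPKM (log axis) for the 163 tested transcripts. The 6 larger points had an unadjusted p under 0.05, none of them after adjustment, and the points scatter on both sides of 0 at every level.

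Of the 6 transcripts, 3 were higher in DS plants. Sb04g024700.1 had 11.1, 11.3 and 8.58 RPKM in DS and 4.26, 3.22 and 6.63 RPKM in WW libraries, a log2 ratio of 1.16 (SE 0.38, edgeR adjusted p = 0.413). Sb01g033855.1 had 14.4, 16.2 and 17.6 RPKM in DS and 8.48, 11.3 and 7.49 RPKM in WW libraries (log2 ratio 0.86, SE 0.32). In Sb05g000335.1 the values were 23.7, 26.2 and 19.3 RPKM in DS and 15.5, 10.8 and 17.6 RPKM in WW libraries (log2 ratio 0.68, SE 0.28). In each of these transcripts every DS library lay above every WW library.

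The other 3 transcripts had the opposite direction. Sb09g022390.1 had 6.81, 6.27 and 9.73 RPKM in DS and 23.6, 25.3 and 19.9 RPKM in WW libraries, a log2 ratio of -1.53 (SE 0.45, edgeR adjusted p = 0.399), the lowest adjusted p of the set. Sb06g005801.1 had 4.15, 7.45 and 12.3 RPKM in DS and 18.9, 16.1 and 19.0 RPKM in WW libraries (log2 ratio -1.09, SE 0.46), and Sb02g029950.1 had 11.2, 16.9 and 14.2 RPKM in DS and 26.2, 25.3 and 23.8 RPKM in WW libraries (log2 ratio -0.80, SE 0.26). Every DS library of these transcripts lay below every WW library. Over the set, the 3 DS libraries lay above the 3 WW libraries for 10 tested transcripts (6.13%, against 4.93% of all tested) and below for 11 (6.75%, against 9.13%).

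Most of the largest log2 ratios had wide errors, and the DS and WW libraries overlapped for 7 of these 10 transcripts. The highest were 1.62 for Sb03g004390.1 (SE 1.87), 1.54 for Sb03g022140.1 (SE 0.87), 1.39 for Sb02g021535.1 (SE 0.86) and 1.10 for Sb02g022086.1 (SE 0.71), beside Sb04g024700.1. The lowest were -1.81 for Sb05g009726.1 (SE 1.19), -1.63 for Sb09g025550.1 (SE 1.67), -1.52 for Sb01g013050.1 (SE 0.76) and -1.10 for Sb01g021640.1 (SE 1.22), beside Sb09g022390.1. The libraries did not overlap for Sb04g024700.1, Sb09g022390.1 and Sb01g013050.1, the last with 1.62, 1.48 and 1.48 RPKM in DS and 2.17, 8.65 and 2.62 RPKM in WW libraries. In several of these, 1 library lay far from the others of its group. Sb05g009726.1 had 0.925, 0.132 and 2.11 RPKM in DS and 9.47, 1.03 and 1.92 RPKM in WW libraries, and Sb03g022140.1 had 9.16, 13.9 and 1.23 RPKM in DS and 4.24, 1.71 and 2.05 RPKM in WW libraries.

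The counts moved most when IS22330 DS library c was left out. Without it, 18 transcripts of the set, of 160 tested, had an unadjusted p under 0.05, where 23.8% of all transcripts then tested did. In the same fit 3 of the set had an edgeR adjusted p under 0.05, against 4.20% of all 18917 transcripts tested. These were Sb07g004710.1 with a log2 ratio of -2.85 (adjusted p = 0.0450), Sb08g015237.1 with -2.22 (adjusted p = 0.0474) and Sb06g005801.1 with -1.72 (adjusted p = 0.0471). Sb08g015237.1 had 2.60, 3.35 and 17.0 RPKM in DS and 17.3, 11.8 and 10.4 RPKM in WW libraries. In all 3, DS library c was the DS library nearest to the WW libraries. Without IS22330 DS library a 2 transcripts of the set had an unadjusted p under 0.05, against 5.31% of all tested. Without IS22330 WW library a 3 did, against 6.47% of all tested.

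The level of some transcripts varied widely over the 6 libraries of IS22330. The coefficient of variation over the 6 libraries had a median of 42.4% in the set (9.22% for Sb09g001200.1 to 171% for Sb09g025520.1), against 33.9% over expressed transcripts. By level, the set was compared with the expressed transcripts outside it. At a level of 1 to 5 the median was 46.5% in the set and 42.1% over the other expressed transcripts. At 5 to 20 it was 40.1% in the set and 31.9% over the others, and at 20 to 200 it was 26.8% in the set and 29.1% over the others. The highest and lowest library were under 2-fold apart for 30 transcripts, and over 10-fold apart, or with a library at 0, for 23.

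In these 23, the libraries that stood apart were counted by pairs. DS library c and WW library b were the 2 lowest libraries in 9 (39.1%), against 10.8% of the 1340 other expressed transcripts with such a spread, and the 2 highest in 3 (13.0%, against 3.13%). DS library c and WW library a were the 2 highest in 7 (30.4%, against 19.0%). Over all 164 transcripts DS library c and WW library b were the 2 lowest in 12.8%, against 13.6% of other expressed transcripts, and the 2 highest in 4.27%, against 3.47%. Low in both were Sb10g002600.2, with 6.99, 7.44 and 0 RPKM in DS and 13.2, 0 and 7.41 RPKM in WW libraries, and Sb09g025550.1, with 3.44, 4.05 and 0 RPKM in DS and 17.8, 0.0995 and 4.47 RPKM in WW libraries. Sb03g004390.1 had 5.35, 7.11 and 0 RPKM in DS and 1.31, 0 and 2.60 RPKM in WW libraries, and Sb01g021640.1 had 9.53, 12.1 and 1.55 in DS and 34.2, 0.469 and 13.7 in WW libraries. High in both, beside Sb09g025520.1, was Sb09g027033.1, with 0, 0 and 10.4 RPKM in DS and 1.29, 12.3 and 0.227 RPKM in WW libraries. The pair of DS library c and WW library b was seen in the values and then counted, it was not tested, and it crosses the water treatments, each of which holds 1 of the 2 libraries.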

How the data were processed

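RNA from 12 libraries, 3 per genotype and water treatment, was aligned by the authors to the sorghum genome of Ensembl Plants with SOAPaligner/SOAP2, with a few mismatches allowed, so reads of either genotype were counted only where they resembled this reference. The expected counts deposited by the authors are averages of unique reads per transcript in the 3 libraries of each group. The RPKM values deposited by the authors were likewise averaged over 3 libraries, and a library without reads entered as 0.001. The transcript length deposited by the authors, another column, was used as given.

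Whole reads per library were solved from both means for 27984 of 27989 transcripts; 5 had no single solution, none of them in the set. All 4 files held columns of these samples only. The solving was tested on simulated libraries, and so was the edgeR fit. Libraries carry no replicate number and were lettered a, b and c by total. The p-values measure the spread between 3 libraries a group.

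The quasi-likelihood test of edgeR 4.0.16 (R 4.3.3) was fitted to the 4 group means of 12 libraries, scaled by TMM, with the prior count set to 0.125, over 19021 transcripts whose RPKM reached 1 in 3 or more libraries, with Benjamini-Hochberg adjustment over all of them. Calls used the thresholds of the study, an adjusted p no higher than 0.001 and an absolute log2 ratio of 2 or more. The study applied them with its own test between pairs of samples and the Benjamini-Yekutieli adjustment. By that procedure it reported genes that respond to drought in IS22330, so the counts of calls here are not comparable with its counts. The SE is the log2 ratio divided by the square root of F. DESeq2 1.42.0 and limma 3.58.1 (log2 of RPKM + 0.1) were alternatives, beside RLE factors, no minimum, a prior count of 0.5, the 6 IS22330 libraries alone and leaving out each library. Tables were made with Python 3.11.15 and pandas 2.3.3.

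The members, lists and comparisons were chosen with earlier results of these data known. Named transcripts were the 10 of highest level, the 5 longest runs, the 5 highest and 5 lowest drought ratios and the 3 nearest on each side of the RPKM limit; others, such as the 6 at an unadjusted p under 0.05, the longer stretches, the neighbours and those over 10-fold apart, were chosen after their values were seen. A grouping by gene annotation was planned and not made, since the reference table used here matched 0 of the IDs, and no sequences are shown.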

Additional observations from a re-analysis of the deposited data

How the results depend on the processing

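The number of transcripts in the set stayed within 1.5 times of 164 under each alternative to its limits (112 to 220), as did the 46 loci in runs (46 to 62). No transcript was called for drought with an adjusted p no higher than 0.001 and 4-fold under any alternative. At an adjusted p under 0.05 the count was 0 to 3 when a library was left out, and at an unadjusted p under 0.05 it was 2 to 18. Over all tested transcripts these counts were 0 to 795 and 1003 to 4507. Higher calls in IS22330 numbered 34 to 71 in DS and 25 to 71 in WW plants when a library was left out, and 148 in each with DESeq2. Over all tested transcripts they numbered 53 to 122 in DS and 39 to 124 in WW plants when a library was left out. With DESeq2 they numbered 483 in DS and 408 in WW plants. Neighbours called higher numbered 3 to 6 when a library was left out and 18 with DESeq2. Of all tested loci outside the set, 27 to 68 and 413 were called in these fits. Stretches of 4 or more loci numbered 17 with up to 10 reads allowed in IS20351, against 6 with none. When a library was left out, the drought log2 ratio ran from -1.66 to 0.13 for Sb01g021640.1, from -2.85 to 0.023 for Sb07g004710.1 and from -2.21 to 0.11 for Sb09g025550.1, and it was above 0 without IS22330 WW library a only. The cause of these changes was not tested. No paired analysis was possible because the solved libraries carry no replicate numbers, and the replicate block was not run. With 3 libraries a group the median SE of a drought log2 ratio in the set was 0.54. It was 0.71 for the 9 tested transcripts of up to 100 reads and 0.32 for the 36 of over 2000 reads, with single values up to 2.10.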
